A study of Homo sapiens with 4 samples.

Results

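The enzymes of glutamine, glutamate and proline metabolism described here are GLUL, GLUD1, GOT1, GOT2, GPT2, PYCR1, ALDH18A1 and PRODH. They were chosen by name for their place in the pathway, by an exact match to the gene symbol, and make up 8 of the 25268 symbols with a value. The choice was made with earlier results of these data known. Counts of members called, set beside the share of all genes, are thus descriptions only. RNA-Seq was performed in SK-MEL-28, an established human melanoma cell line, to ask which transcripts respond when MYC, a transcription factor gene, is induced. Cells carried either an empty pTRIPZ vector (vector cells) or a MYC gene under a Tet-inducible promoter (MYC-inducible cells). Both were made by lentiviral transduction and kept in medium with G418. Both kinds of cells were analysed untreated and treated for 54 h with doxycycline (Dox), the agent that switches on the Tet promoter, at 0.5 μg/ml per the study's methods. With 1 library for each of the 4 conditions, the differences below have no replicate check, no test was made and no SD is given. The methods describe selection of the infected cells with geneticin and name no picking of clones.

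Glutamine brings nitrogen into the cell and is made from glutamate and ammonia by glutamine synthetase, the product of GLUL. Glutamate passes its amino group to other keto acids through aminotransferases, or loses it to glutamate dehydrogenase, and leaves 2-oxoglutarate for the TCA cycle. Glutamate is also the starting material for proline, which mitochondria oxidise back to glutamate by way of proline dehydrogenase.

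Values are FPKM (fragments per kilobase of transcript for every 1000000 that mapped), which are per transcript length, so that levels of different genes can be set side by side. They are shares of each library's RNA, and in these bulk samples fewer expressing cells and less RNA per cell cannot be told apart. A change is a difference of log2(FPKM + 0.1), a scale that understates the change of low genes. It was calculated over the 11147 genes that averaged 1 FPKM or more, and was called when it reached 1.5-fold in either direction. The counting error beside a change is approximate and covers the sampling of fragments only. The depth, estimated from genes with very low values, was approximately 35100000 to 42200000 fragments per library. MYC itself had 58.3 FPKM in untreated vector cells, 54.8 FPKM in treated ones, 76.5 FPKM in untreated MYC-inducible cells and 87.1 FPKM in treated ones, a log2 change of 0.19 in MYC-inducible cells, which was not called, and a log2 difference of 0.67 between treated MYC-inducible and treated vector cells. Transcripts from the transgene and from the cell's own MYC gene are not separated in this value. Untreated MYC-inducible cells already stood 0.39 above untreated vector cells on the log2 scale. By other measures, the study reports more MYC mRNA with Dox in MYC-inducible cells (RT-PCR) and a higher activity of a MYC reporter. All 7 melanocyte markers examined were at 1 FPKM or more in the 4 libraries, and their summed level was 7771 to 7911 FPKM in 3 libraries and 4414 FPKM in treated MYC-inducible cells. Most of this sum was PMEL, with 6178 FPKM in untreated and 3394 FPKM in treated MYC-inducible cells. All 7 were lower with Dox in MYC-inducible cells, but MITF went only from 90.0 to 67.2 FPKM and SOX10 from 191 to 156 FPKM. DCT was higher in treated MYC-inducible cells (65.1 FPKM) than in treated vector cells (61.9 FPKM). Of 8 markers of other cell types, 7 stayed under 1 FPKM in each library, and KRT5 was listed at 0 throughout. The exception was the epithelial marker EPCAM, with 0.658 to 0.769 FPKM in 3 libraries and 2.71 FPKM in treated MYC-inducible cells, where the sum of these 8 markers was 2.95 FPKM against 0.894 to 1.07 FPKM elsewhere. The part of these markers in the results below was not tested.

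With Dox, MYC-inducible cells had more GOT2 and GPT2, 2 mitochondrial aminotransferases, and less PRODH, the first enzyme of proline breakdown. These were the 3 members called of 7 tested, 2 higher and 1 lower, beside 5.9% and 8.85% of all genes tested. PRODH only just passed the filter. PYCR1 and ALDH18A1, which make proline, were 1.34-fold and 1.30-fold higher, short of the 1.5-fold threshold. No member was called in vector cells, where 0.709% of all genes were called higher and 0.44% lower.

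Promoter sequences were read for the members that RefSeq's table holds, which are GLUL, GLUD1, GOT1, GOT2 and ALDH18A1, 5 of the 8. GPT2, PYCR1 and PRODH have no entry in that table. Each window holds the 250 bases before the annotated start on GRCh38.p14. The letters CACGTG, the canonical E-box that MYC and its partner MAX recognise, and TGATGNAA, a composite of ATF and C/EBP letters, were searched on both strands, and the motifs share no overlap here. The first was found in 6.34% and the second in 3.14% of all 35116 windows of this length. ALDH18A1 is shown because it was the member with CACGTG, GOT1 because it was the member with the composite, and GOT2 because it was a member called higher whose window holds neither run of letters. Capitals mark the match, which in GOT1 reads TTGCATCA because it lies on the reverse strand. All 3 windows are on the minus strand and run 5′ to 3′: ALDH18A1 at chr10:95656712-95656961, GOT1 at chr10:99430625-99430874 and GOT2 at chr16:58734317-58734566.
ALDH18A1: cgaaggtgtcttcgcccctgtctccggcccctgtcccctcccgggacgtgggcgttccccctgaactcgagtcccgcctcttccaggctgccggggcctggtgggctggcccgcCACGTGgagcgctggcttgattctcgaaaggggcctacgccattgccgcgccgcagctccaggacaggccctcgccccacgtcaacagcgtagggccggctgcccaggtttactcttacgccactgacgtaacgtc
GOT1: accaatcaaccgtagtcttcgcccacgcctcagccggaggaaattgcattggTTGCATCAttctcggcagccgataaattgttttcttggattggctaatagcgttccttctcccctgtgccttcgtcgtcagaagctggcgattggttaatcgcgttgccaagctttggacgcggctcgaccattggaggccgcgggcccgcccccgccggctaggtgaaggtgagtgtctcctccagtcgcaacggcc
GOT2: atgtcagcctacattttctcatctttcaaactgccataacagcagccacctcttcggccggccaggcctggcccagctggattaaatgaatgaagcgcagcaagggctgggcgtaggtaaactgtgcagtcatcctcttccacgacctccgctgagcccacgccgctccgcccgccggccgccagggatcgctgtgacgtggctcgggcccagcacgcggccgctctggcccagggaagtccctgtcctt
The CACGTG begins 136 bases before the ALDH18A1 start, and the composite begins 198 bases before the GOT1 start. GLUL, which has 2 entries, and GLUD1 hold neither. The G and C content was 68.8% in ALDH18A1, 58.0% in GOT1, 62.8% in GOT2, 80.4% in GLUD1 and 74.8% and 71.2% in the entries of GLUL, against a median of 58.0% over all windows. A match here is a description of the letters and not evidence of binding.

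**Figure D1:**
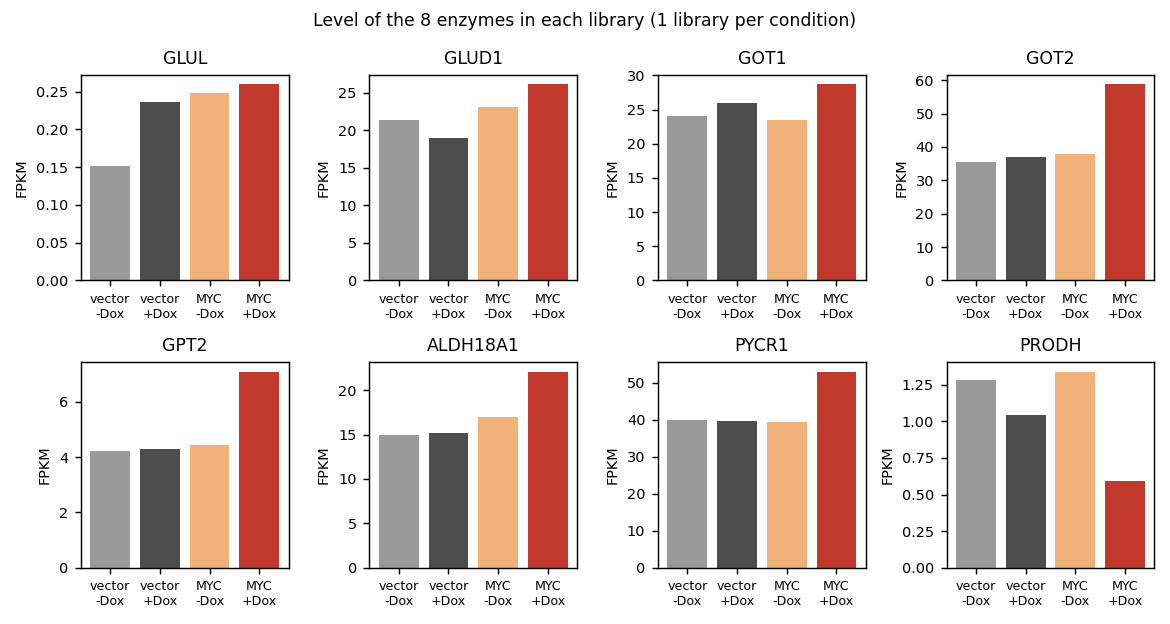
Level of each of the 8 enzymes in the 4 libraries, in FPKM on axes that start at 0 and differ between panels, with 1 bar per library. GOT2 and GPT2 stand highest in treated MYC-inducible cells, at 58.7 and 7.09 FPKM, and PRODH stands lowest there, at 0.593 FPKM.

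GLUL, the enzyme that makes glutamine, was the member listed with the lowest level, which is low for this gene, and whether the table counts it in full could not be checked. It had 0.151 FPKM in untreated vector cells, 0.236 FPKM in treated vector cells, 0.248 FPKM in untreated MYC-inducible cells and 0.260 FPKM in treated ones. Untreated vector cells gave the low library and the other 3 lay close together. With a mean of 0.224 FPKM the gene did not reach the filter, and it rested on approximately 44.9 to 78.9 fragments per library. These numbers assume a transcript of 7554 bases and are too high if a shorter one was used, so only large differences could be seen at this depth. The log2 change with Dox was 0.05 in MYC-inducible cells (counting error 0.231) and 0.42 in vector cells (counting error 0.282). GLUL lies on chromosome 1 of GRCh37 from 182347233 to 182361341, on the minus strand, with 7 exons in its canonical transcript, and 4 pseudogenes carry its name, among which reads could be divided.

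GLUD1, mitochondrial glutamate dehydrogenase, converts glutamate to 2-oxoglutarate and ammonia. Its level was 21.4 FPKM in untreated vector cells, 19.0 FPKM in treated ones, 23.1 FPKM in untreated MYC-inducible cells and 26.1 FPKM in treated ones. Dox libraries were thus the lowest and the highest of the 4. The log2 change was 0.17 in MYC-inducible cells (counting error 0.0355) and -0.17 in vector cells (counting error 0.0412), about equal in size and opposite in direction. GLUD1 lies on chromosome 10 of GRCh37 from 88809959 to 88854600, on the minus strand, with 13 exons. SHLD2, listed under its older name FAM35A, overlaps it on the opposite strand and had 6.11, 5.44, 6.58 and 8.40 FPKM in the same order. GLUD2, a close copy of GLUD1 without introns, had 1.85, 1.93, 1.76 and 1.63 FPKM. Reads of these genes and of 6 pseudogenes named for GLUD1 may be divided between them, and strand was not stated for the library kit. Those of the pseudogenes that were listed had 0.0752 FPKM or less in each library, and a division of reads was not tested.

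GOT1 and GOT2 are the cytosolic and mitochondrial aspartate aminotransferases, which swap the amino group between glutamate and aspartate and form part of the malate-aspartate shuttle. GOT1 had 24.1 FPKM in untreated vector cells, 26.0 FPKM in treated ones, 23.5 FPKM in untreated MYC-inducible cells and 28.7 FPKM in treated ones. Both Dox libraries were above both untreated ones, and the log2 change was 0.29 in MYC-inducible cells (counting error 0.0447) and 0.11 in vector cells (counting error 0.0476). GOT2 had 35.5, 36.9 and 37.9 FPKM in untreated and treated vector cells and untreated MYC-inducible cells, and 58.7 FPKM in treated MYC-inducible cells. This last library stood apart, whereas the other 3 lay close together. GOT2 rose 1.55-fold with Dox in MYC-inducible cells (log2 0.63, counting error 0.0301), against a log2 change of 0.06 in vector cells. The call was close to the threshold, and the log2 change was 0.58 when the libraries were scaled to the same sum, which ends it. The ratio of GOT2 to GOT1 was 1.47 and 1.42 in untreated and treated vector cells, and 1.62 and 2.05 in MYC-inducible cells. GOT1 lies on chromosome 10 of GRCh37 from 101156627 to 101190381 and GOT2 on chromosome 16 from 58741035 to 58768246, both on the minus strand, with 9 and 10 exons. The name of GOT2 is carried by 6 pseudogenes, among which reads could be divided, and an unnamed gene overlaps GOT2 on the opposite strand.

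GPT2, mitochondrial alanine aminotransferase, moves the amino group of glutamate to pyruvate. It had 4.24 FPKM in untreated vector cells, 4.29 FPKM in treated ones, 4.43 FPKM in untreated MYC-inducible cells and 7.09 FPKM in treated ones. The other libraries were nearly level and treated MYC-inducible cells were high. The rise in MYC-inducible cells was 1.59-fold (log2 0.67, counting error 0.0682), and the log2 change in vector cells was 0.02 (counting error 0.0812). With a pseudocount of 1 FPKM the log2 change was 0.58, which ends the call. The cytosolic paralogue GPT was nearly silent, listed at 0 in untreated MYC-inducible cells and at 0.0274 to 0.0414 FPKM in the other 3 libraries. GPT2 lies on chromosome 16 of GRCh37 from 46918274 to 46965201, on the plus strand, with 12 exons. Its level relative to GOT2 was almost constant, with a ratio of 0.120, 0.116, 0.117 and 0.121 in the 4 libraries.

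ALDH18A1 encodes the enzyme that carries out the first steps from glutamate to proline, and PYCR1 the mitochondrial reductase that completes them. The level of ALDH18A1 was 14.9 FPKM in untreated vector cells, 15.1 FPKM in treated ones, 17.0 FPKM in untreated MYC-inducible cells and 22.1 FPKM in treated ones. MYC-inducible cells were already above vector cells when untreated, by 0.19 on the log2 scale, and the log2 change with Dox was 0.38 (counting error 0.0397) against 0.02 in vector cells. PYCR1 had 39.8, 39.6 and 39.4 FPKM in untreated and treated vector cells and untreated MYC-inducible cells, and 53.0 FPKM in treated MYC-inducible cells. Its log2 change was 0.42 (counting error 0.0315) in MYC-inducible cells and -0.01 in vector cells. Neither gene was called, although both were highest in the same library. Their ratio, PYCR1 to ALDH18A1, stayed between 2.32 and 2.67. ALDH18A1 lies on chromosome 10 of GRCh37 from 97365698 to 97416468 with 18 exons, and PYCR1 on chromosome 17 from 79890260 to 79900288 with 7 exons, both on the minus strand. The gene MYADML2, which overlaps PYCR1, was listed at 0.0116 FPKM or less.

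PRODH, mitochondrial proline dehydrogenase, starts the oxidation of proline and was the member that fell. Its level was 1.29 FPKM in untreated vector cells, 1.04 FPKM in treated ones, 1.34 FPKM in untreated MYC-inducible cells and 0.593 FPKM in treated ones. Treated MYC-inducible cells gave the lowest value, and treated vector cells the next lowest. The mean of 1.07 FPKM was just above the filter of 1 FPKM, which PRODH passed through the libraries where it was higher. PRODH fell by 1.05 on the log2 scale in MYC-inducible cells, or 2.08-fold (counting error 0.239). The log2 change in vector cells was -0.28 (counting error 0.211), and the change in MYC-inducible cells less that in vector cells was -0.78. These values rest on approximately 111, 80.8, 124 and 51.5 fragments in the order above, and a pseudocount of 1 FPKM, near the level of the gene itself, brought the change to -0.55 and ended the call. PRODH lies on chromosome 22 of GRCh37 from 18900290 to 18924066, on the minus strand, with 14 exons. DGCR6 overlaps it on the opposite strand and was far more abundant, at 46.0, 45.4, 41.9 and 33.4 FPKM, lowest in the same library as PRODH. Its part in the PRODH values was not tested.

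**Figure D2:**
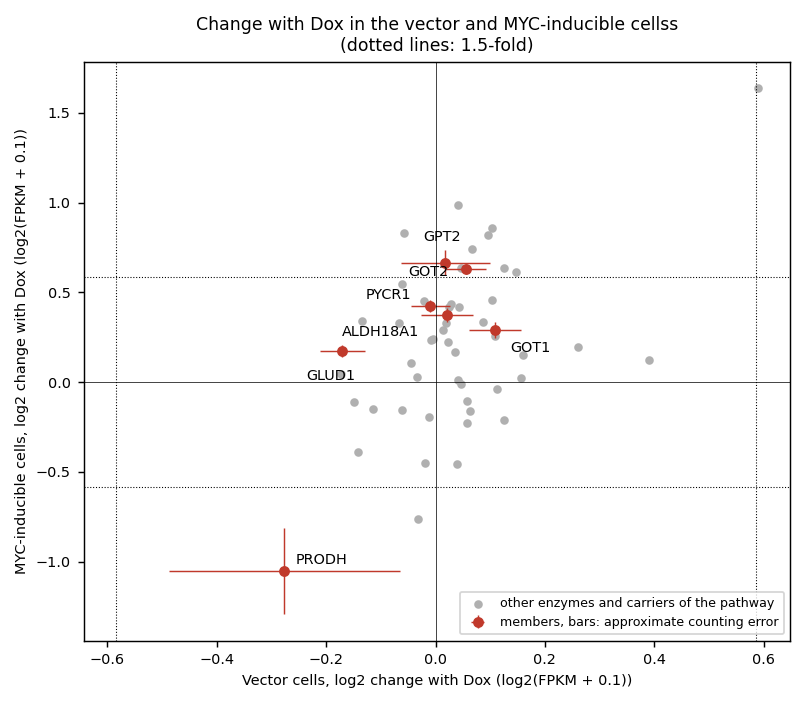
Log2 change with Dox in vector cells (horizontal axis) and in MYC-inducible cells (vertical axis) for the 7 members that passed the filter, with bars for the approximate counting error, and for 47 other genes of the pathway. GOT2 (0.63) and GPT2 (0.67) lie above the upper dotted line of 1.5-fold and PRODH (-1.05) below the lower one, and the members lie between -0.28 and 0.11 on the horizontal axis.

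Of the 8 members, 7 passed the filter. In MYC-inducible cells, 2 of them were called higher with Dox, beside 5.9% of all genes tested, and 1 was called lower, beside 8.85%. Vector cells gave 0 members called in either direction, where 0.709% of all genes were called higher and 0.44% lower. Vector and MYC-inducible cells were also compared with each other. With Dox in both, MYC-inducible cells had 2 members called higher, beside 6.5% of all genes, and 1 called lower, beside 8.62%. These were again GOT2 (log2 0.67), GPT2 (log2 0.71) and PRODH (log2 -0.72). The difference was 0.54 for ALDH18A1, 0.46 for GLUD1, 0.42 for PYCR1 and 0.14 for GOT1, none of which was called. Against this reference GLUD1 was thus further up, and GOT1 less so, than with Dox against untreated cells. This comparison shares the treated MYC-inducible library with the one above and is not a separate observation. Without Dox, 0 members were called between vector and MYC-inducible cells, beside 0.592% of genes higher and 0.287% lower in MYC-inducible cells. The largest difference between the untreated cells among the 7 was the 0.19 of ALDH18A1.

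The median log2 change of the 7 members was 0.38 in MYC-inducible cells and 0.02 in vector cells, beside medians of -0.03 and 0.01 over all genes tested. With GLUL included, the median in MYC-inducible cells was 0.33. Of the 7, 6 were at their highest in treated MYC-inducible cells, a pattern held by 40.2% of all genes tested. Many genes moved as far: 461 of the 11147 had a log2 change at least as high as GPT2, 531 as GOT2, 1277 as PYCR1, 1550 as ALDH18A1, 2120 as GOT1 and 3154 as GLUD1. For PRODH, 193 genes had a change at least as low. Genes as a whole were more widely spread in MYC-inducible cells, with a robust SD of 0.36 on the log2 scale against 0.11 in vector cells.

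**Figure D3:**
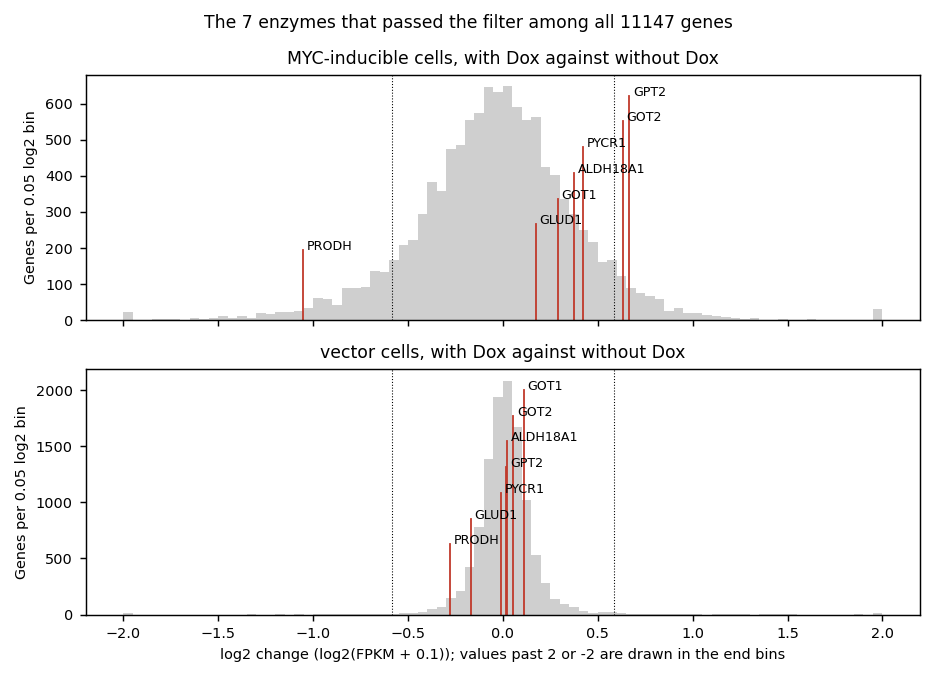
Number of genes per 0.05 of log2 change with Dox, in MYC-inducible cells (upper panel) and vector cells (lower panel), for all 11147 genes tested, with a line at the value of each of the 7 members. In the upper panel 6 members lie to the right of 0, between 0.17 and 0.67, and PRODH lies at -1.05.

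Since FPKM is per length, the levels of the members could be ordered within each library. PYCR1 led in 3 libraries, followed by GOT2, GOT1, GLUD1, ALDH18A1, GPT2, PRODH and GLUL. In treated MYC-inducible cells, GOT2 (58.7 FPKM) passed PYCR1 (53.0 FPKM), and the rest of the order was the same. The ranges over the 4 libraries of neighbours overlapped for PYCR1 and GOT2, for GOT2 and GOT1 they did not, and they overlapped again for GOT1 and GLUD1 and for GLUD1 and ALDH18A1. GPT2, PRODH and GLUL were each separate from their neighbours in all 4 libraries. The members with mitochondrial products, 6 of the 8, thus ran from the most to nearly the least abundant.

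Genes with a pattern like that of a member were sought for GPT2 and PRODH, whose MYC-inducible and vector changes differed most. The measure was the Euclidean distance between log2 values centred on their mean over the 4 libraries, among 7422 genes that averaged 5 FPKM or more. Nearest to GPT2 were SSBP4 (distance 0.0102), TDG (0.0182) and MRPL21 (0.0220). Nearest to PRODH were ETNK2 (0.0466), TNS1 (0.0784) and NRTN (0.0869). Within the members, GOT2 and GPT2 were the closest pair, at 0.0372, followed by PYCR1 and ALDH18A1, at 0.166. PRODH was far from every other member, its nearest being GOT1 at 1.06. With 4 libraries, likeness of this kind has little to rest on.

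The enzymes that make proline and the one that starts its breakdown can be set against each other as ratios within a library, which do not depend on how the libraries are scaled. PYCR1 was 31.0 times the level of PRODH in untreated vector cells, 37.9 times in treated ones, 29.4 times in untreated MYC-inducible cells and 89.3 times in treated ones. ALDH18A1 was 11.6, 14.5 and 12.7 times PRODH in the first 3 of these libraries and 37.2 times in treated MYC-inducible cells. The second enzyme of breakdown, ALDH4A1, was not called, with 10.8, 11.1, 10.4 and 7.55 FPKM, and the ratio of ALDH18A1 to it was 1.38, 1.36, 1.64 and 2.93. Each ratio was highest in the same library, and each shows an unequal change of its genes and not which of them moved. The ratios to PRODH share its value of 0.593 FPKM in treated MYC-inducible cells, on approximately 51.5 fragments, and are not separate observations. ALDH4A1 was added after its values were seen, and its ratio shares the ALDH18A1 values, so that ratio is not a separate observation either. PYCRL, a paralogue of PYCR1, had 16.3 FPKM in untreated and 19.5 FPKM in treated MYC-inducible cells. PRODH2, a paralogue of PRODH, was listed at 0 in the 4 libraries.

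The surroundings of the members in the pathway were covered by 8 lists with 61 other genes, of which 47 passed the filter. These lists too were chosen with earlier results of these data known, so their counts are descriptions only. In MYC-inducible cells 9 of the 47 were called higher and 1 lower, beside the 5.9% and 8.85% given above, and their median log2 change was 0.22. In vector cells 1 was called higher and 0 lower, beside 0.709% and 0.44% of all genes, and the median was 0.04. With Dox in both kinds of cells, 8 were called higher and 0 lower in MYC-inducible cells, beside 6.5% and 8.62% of all genes. Without Dox 0 were called, beside 0.592% of all genes higher and 0.287% lower.

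Among the other aminotransferases that use glutamate, 2 of 6 were called higher, beside the 5.9% of all genes tested. PSAT1, of serine synthesis, rose from 35.5 to 59.4 FPKM (log2 0.74) and BCAT2, the mitochondrial branched-chain aminotransferase, from 33.1 to 51.5 FPKM (log2 0.64). Of the 11 genes that use the amide of glutamine, 4 were called higher. ASNS, asparagine synthetase, rose from 6.72 to 21.1 FPKM (log2 1.64), and was also called in vector cells, from 8.88 to 13.4 FPKM (log2 0.59), a call that ends under each of 3 other scalings and with a pseudocount of 1 FPKM. PPAT and PFAS, of purine synthesis, rose from 6.77 to 12.1 FPKM and from 5.50 to 9.79 FPKM, and QRSL1, which amidates mitochondrial glutamyl-tRNA, from 4.69 to 7.34 FPKM, a log2 change of 0.63 that became 0.55 and was not called with a pseudocount of 1 FPKM. Among carriers, 3 of 8 were called higher. SLC1A5, the plasma membrane glutamine carrier, rose from 111 to 171 FPKM (log2 0.61), though its log2 change was 0.56 and not called when the libraries were scaled to the same sum. SLC38A1, another glutamine carrier, rose from 2.31 to 4.27 FPKM (log2 0.86) and SLC25A22, a mitochondrial glutamate carrier, from 14.9 to 29.6 FPKM (log2 0.99). When treated MYC-inducible cells were compared with treated vector cells, BCAT2 (log2 0.40) and SLC1A5 (log2 0.43) were not called. ASNS was still called, at a log2 difference of 0.65, and so were PSAT1, PPAT, PFAS, QRSL1, SLC38A1 and SLC25A22.

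In the lists next to GLUD1 and PRODH, calls were few, beside 5.9% of all genes tested called higher and 8.85% lower. At these shares, lists of this size would hold few calls in any case. GLUD2 had a log2 change of -0.11 in MYC-inducible cells and was not called. The 4 other proline enzymes tested had 0 called in either direction. The same held for the 5 genes of the malate-aspartate shuttle, in which GOT1 and GOT2 take part, and for the 3 genes of glutathione synthesis. Of 8 genes around the entry of 2-oxoglutarate to the TCA cycle, 1 was called: IDH2, mitochondrial isocitrate dehydrogenase, fell from 88.7 to 52.1 FPKM (log2 -0.76). Vector cells had 75.9 FPKM untreated and 74.2 FPKM treated, and against the treated ones the log2 difference was -0.51 and not called.

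**Figure D4:**
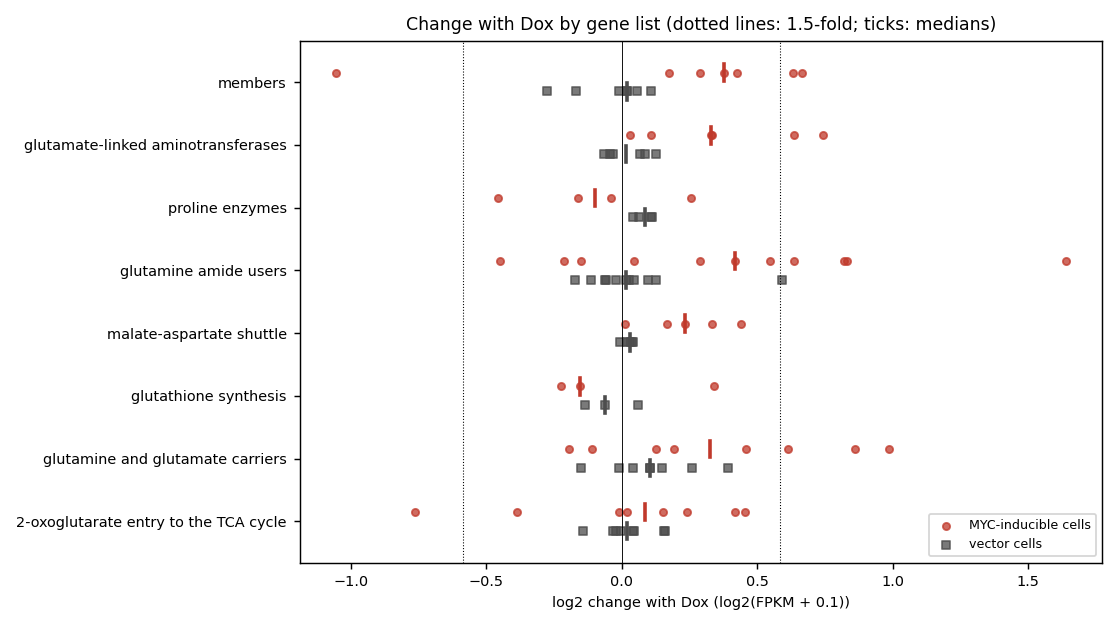
Log2 change with Dox of the members and of 7 of the lists of other genes in the pathway, in MYC-inducible cells (circles) and vector cells (squares), with 1 point per gene that passed the filter and a tick at each median. Points right of the upper dotted line are called higher at 1.5-fold. The member median is 0.38 in MYC-inducible cells and 0.02 in vector cells.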

How the data were processed

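RNA-Seq was performed on 4 libraries, 1 per condition, and the authors deposited their values as FPKM, listed by gene symbol. The submitters' processing notes name TopHat2 2.0.14, Cufflinks, hg19 and GRCh37, and the annotation behind the FPKM values is not given in the sources used here. The table had 27032 rows, of which 1 lacked a name and was dropped. Values of the 609 symbols found in more than 1 row were added up.

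No count model was fitted, since FPKM values are not counts. Changes were differences of log2(FPKM + 0.1) over genes averaging 1 FPKM or more, called at 1.5-fold. Depth was estimated from the smallest steps between values of 101 weakly expressed genes and their transcript lengths, so that depths and fragment numbers are approximate. Positions came from GENCODE release 44 on GRCh37, and promoters from RefSeq on GRCh38.p14.

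The members and gene lists were chosen with earlier results of these data known. Named genes are the members, the list genes called with Dox in either kind of cells, the nearest paralogues by name, and for the 2 members with the largest difference between vector and MYC-inducible cells the 3 genes nearest in pattern. Some genes that this rule names are not reported here. ALDH4A1 and the overlapping genes SHLD2, MYADML2 and DGCR6 were added after their values were seen. The calculations were tested on simulated data with 2-fold changes and the same noise in every gene. This does not show how calls near the 1.5-fold threshold or at low levels behave.

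The alternatives tried were a pseudocount of 1 or 0.01, a filter at 5 FPKM or none, a 2-fold threshold, taking the highest row of a symbol, a mean instead of a median, treated vector cells as reference, and scaling of the libraries to equal sums, to the upper quartile or to the median ratio. Software was Python 3.11.15 with matplotlib 3.10.9, pandas 2.3.3 and numpy 2.4.6.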

Additional observations from a re-analysis of the deposited data

Results flagged for a closer look

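In 2 members the libraries with Dox lay on opposite sides of those without Dox in the MYC-inducible and vector lines. GLUD1 had a log2 change of 0.17 in MYC-inducible cells and -0.17 in vector cells, a difference of 0.34. PYCR1 had 0.42 and -0.01, a difference of 0.43, in which the vector value lay within its counting error of 0. With 1 library per condition neither difference was tested.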

How the results depend on the processing

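No paired analysis was possible because there was 1 library a condition, and for the same reason no library could be left out in turn. Of 73 recalculations of a count or median, 63 stayed near the reported value and 10 moved. A count of 2 members called in place of 3 was held to be near. With a pseudocount of 1 FPKM, 1 member instead of 3 was called in MYC-inducible cells (GOT2), and with a 2-fold threshold 1 was (PRODH). Between treated vector and treated MYC-inducible cells, a pseudocount of 1 FPKM left 2 members called, both higher, so that PRODH lost its call there. The 2-fold threshold left 0 members in that comparison. It also left 1 of the 10 pathway genes in MYC-inducible cells, which was ASNS. The single pathway gene called in vector cells became 0 with a pseudocount of 1 FPKM, with each of the 3 scalings and with the 2-fold threshold. The mean change of the members in MYC-inducible cells was 0.21 against the median of 0.38, since PRODH enters it with -1.05. In vector cells, where the members' median change was 0.02, it was -0.00249 with the libraries scaled by the upper quartile and -0.04 as a mean. Of 117 recalculations for single members, 7 moved and 1 changed sign, GPT2 in vector cells, from 0.02 to -0.00249 with the upper quartile. No called change turned its direction under these alternatives. A filter at 5 FPKM left out PRODH. Low values limit PRODH and GLUL most, and the differences between cultures cannot be estimated from these libraries.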
